A study of Mus musculus with 57 samples.

Results

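Kupffer-niche recruited macrophages were compared with NASH Kupffer cells, which are liver-resident macrophages, across all genes measured by RNA sequencing. Both populations came from livers of C57BL/6J mice fed a NASH diet, a diet that causes fatty liver with inflammation (non-alcoholic steatohepatitis). Both were sorted as F4/80-high cells, and the Tim4 surface protein separated them: Kupffer cells were the Tim4-positive gate and recruited macrophages the Tim4-negative gate. The comparison rests on 4 of the 57 libraries of the series, 2 of each gate, chosen by their labels. They belong to a set of 6 sorted populations with 2 libraries each. The other 4 populations were Tim4-positive Kupffer cells of C57BL/6J mice on a control diet ("healthy" below), and, from C57BL/6J mice on the NASH diet, CD11b-high Ly6C-low recruited liver macrophages, CD11b-high Ly6C-high recruited liver macrophages and Ly6C-high blood monocytes. A second pair of gates, used further down, held Tim4-negative cells from mice with floxed LXR genes and no Cre and Tim4-positive cells from C57BL/6J mice, both after 20 weeks of NASH diet. Liver was digested in the presence of flavopiridol, a blocker of transcription, per the labels' protocols. The labels give neither the diet weeks of the 12 libraries of the set nor the age or sex of the mice, nor whether a library holds 1 animal. Nor do they say that the replicates came from different animals, and the p-values therefore measure only how far these samples scatter, which may be technical.

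Kupffer cells live inside the liver sinusoids, where they clear lipoproteins, bacteria and dying cells from the blood. In steatohepatitis some of them die, and blood monocytes can enter the vacated place and take on much of the Kupffer cell programme. Tim4, a receptor for phosphatidylserine on dying cells, is known to appear late on such cells and is therefore used to separate long-lived resident cells from recent arrivals.

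Levels below are CPM, that is counts per 1000000 scaled to library size with the TMM method, and are given for each library, Kupffer cell replicates 1 and 2 first. Total counts were 13.2 and 15.5 M (M for 1000000 counts) in the Kupffer cell libraries and 18.3 and 15 M in the recruited libraries, within the 12.4 to 22.7 M of the set. The gate genes matched the labels. Timd4, which encodes Tim4, stood at 263 and 164 CPM in the Kupffer cell libraries and at 12.6 and 5.48 CPM in the recruited libraries, so its difference is a check of the sort and not a result. Adgre1, which encodes F4/80, stood at 1937 and 1947 against 1512 and 1527 CPM, and its log2 difference of -0.35 (95% interval -0.80 to 0.09) did not pass the test. Itgam, which encodes CD11b, stood at 134 and 224 against 151 and 284 CPM and overlapped between the gates. Clec4f, a lectin made by mouse Kupffer cells, was abundant in both gates, at 6586 and 4605 and at 3316 and 2670.3 CPM, while blood monocytes had 0.0814 ± 0.115 CPM (SD, n = 2).

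Across 14407 genes tested, 77 differed between the gates. In the recruited macrophages 48 genes were higher and 29 lower, which is 0.534% of the genes tested in either direction, 0.333% higher and 0.201% lower (edgeR's quasi-likelihood test on the set of 12 libraries, two-sided, Benjamini-Hochberg adjusted p under 0.05). Of these, 39 were over 2-fold higher and 13 over 2-fold lower, and the smallest called log2 difference was 0.55 in size. At an unadjusted p under 0.05 there were 682 higher and 629 lower genes, and the median log2 difference of all genes was 0.01. The libraries of both gates did not overlap for any of the 77 called genes, but they also did not overlap for 44.1% of all genes tested. DESeq2 called 125 higher and 139 lower of the 11122 genes for which it gave an adjusted p. The 4 libraries fitted alone gave 13 and 35. limma on the deposited TPM with a pseudocount of 0.1 gave 34 and 2. A block on the replicate number gave 87 and 65, but the labels do not say whether these numbers pair the samples.

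**Figure D1:**
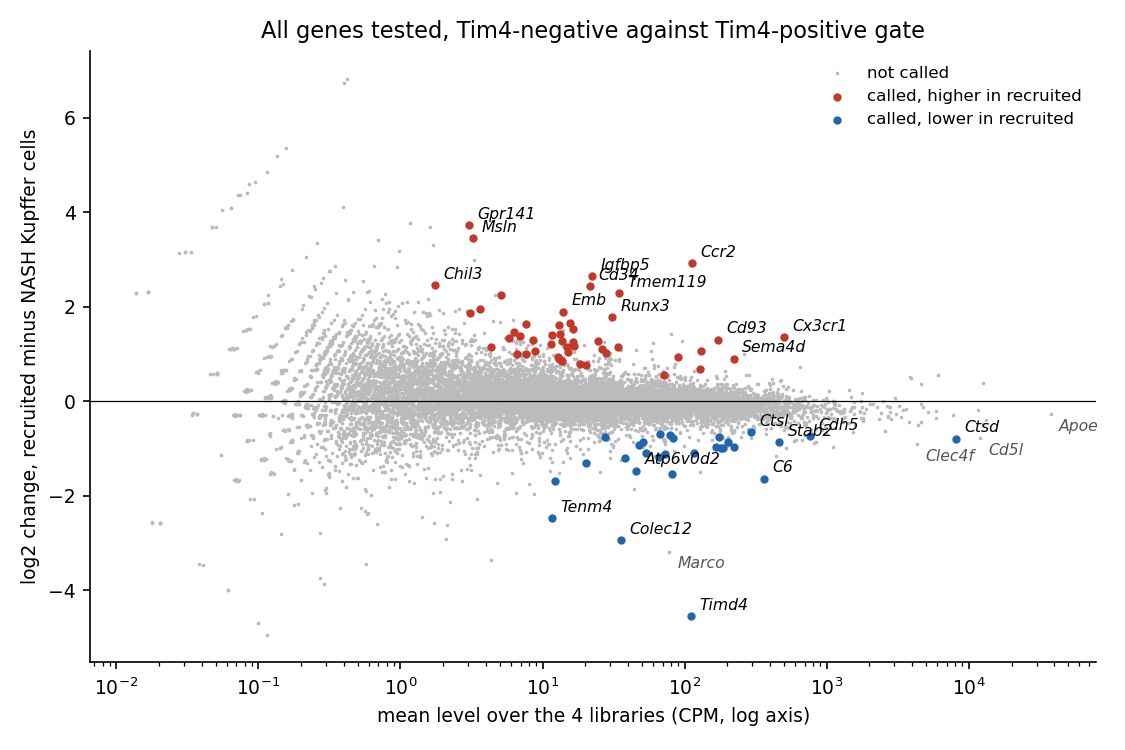
Log2 difference between recruited macrophages and NASH Kupffer cells (vertical axis) against the mean level over the 4 libraries in CPM (log axis), 1 point a gene. The 48 genes called higher are red and the 29 called lower are blue; most of the 14407 points lie near 0, and the labels name called genes and, in grey, abundant or Kupffer cell genes that were not called.

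The size of the differences over the whole transcriptome was described between single libraries. Among 8542 genes with a mean of at least 10 CPM, the median size of the log2 difference between 1 recruited and 1 Kupffer cell library was 0.122 to 0.173 over the 4 such pairs. Between the 2 replicates of a gate it was 0.127 in the recruited and 0.132 in the Kupffer cell libraries. Both values lay above that of recruited replicate 1 against Kupffer cell replicate 1 (0.122). They lay below those of the other pairs across the gates (0.170, 0.172 and 0.173). Differences of over 2-fold numbered 74, 111, 150 and 239 in the 4 pairs across the gates, 76 between the recruited replicates and 67 between the Kupffer cell replicates. For 7940 of these 8542 genes (93.0%) the 95% interval of the log2 difference lay within 2-fold in both directions. The most abundant transcripts were largely shared: 8 of the 10 and 93 of the 100 genes with the highest mean deposited TPM were the same in both gates. Apoe, the lipid-carrying apolipoprotein E, headed both orders with 32806 TPM in recruited and 36478 TPM in Kupffer cells. Ctsd was the only called gene among the 100 most abundant of either gate.

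Leaving out 1 of the 4 libraries gave fewer calls. Each such fit leaves 1 gate with a single library, which is assumed to vary like the other groups of the set. Without Kupffer cell replicate 1, 10 genes were called (7 higher, 3 lower), and without Kupffer cell replicate 2, 33 (26 and 7). Without recruited replicate 1, 13 were called (11 and 2), and without recruited replicate 2, 11 (9 and 2). All 77 genes kept their direction in the 4 fits. The 8 genes called in every one of these fits were Ccr2, Cd34, Emb, Gpr141, Igfbp5, Runx3 and Tmem119, all higher, and Colec12, lower. Timd4 was called in 3 of the 4 fits, Adam15 and Ccr1 in 2, 19 genes in 1 and 47 in none. Where a log2 range "without 1 library" is given below, it covers these 4 fits, and a gene outside the 8 lost its call in at least 1 of them.

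Receptors for chemokines and other small ligands formed the first group of higher genes, with 6 members and log2 differences of 1.35 to 3.73. Ccr2, the receptor for the monocyte chemoattractant Ccl2 (mm10 chr9:124102183-124109140), stood at 23 and 29.3 CPM in the Kupffer cell libraries and 173 and 223 CPM in the recruited libraries, 7.55-fold higher (log2 2.92 ± 0.20 SE, adjusted p = 0.000107). Both recruited libraries thus lay far above both Kupffer cell libraries. Cx3cr1, the fractalkine receptor of monocytes and of many tissue macrophages, stood at 217 and 346 against 663 and 777 CPM and was 2.56-fold higher (log2 1.06 to 1.74 without 1 library, called only without Kupffer cell replicate 2). Ccr1, a receptor for inflammatory CC chemokines, was 3.14-fold higher at 6.6 and 8.46 against 21.7 and 25.9 CPM (log2 1.49 to 1.86 without 1 library, not called without Kupffer cell replicate 1 or recruited replicate 2). The steepest difference in the group belonged to Gpr141, an orphan receptor of myeloid cells, at 0.326 and 0.498 CPM against 5.79 and 5.48 CPM (log2 3.73, 95% interval 2.98 to 4.49). Its counts in the Kupffer cell libraries were 4 and 7, so its fold rests on few reads. Gpr132, a receptor for oxidised and lyso-lipids, went from 5.95 and 8.46 to 20.0 and 19 CPM, and Ramp1, the partner subunit of the receptor for the neuropeptide CGRP, from 3.02 and 3.7 to 8.28 and 10.4 CPM. The calls of these last 2 genes ended without any 1 of the 4 libraries.

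**Figure D2:**
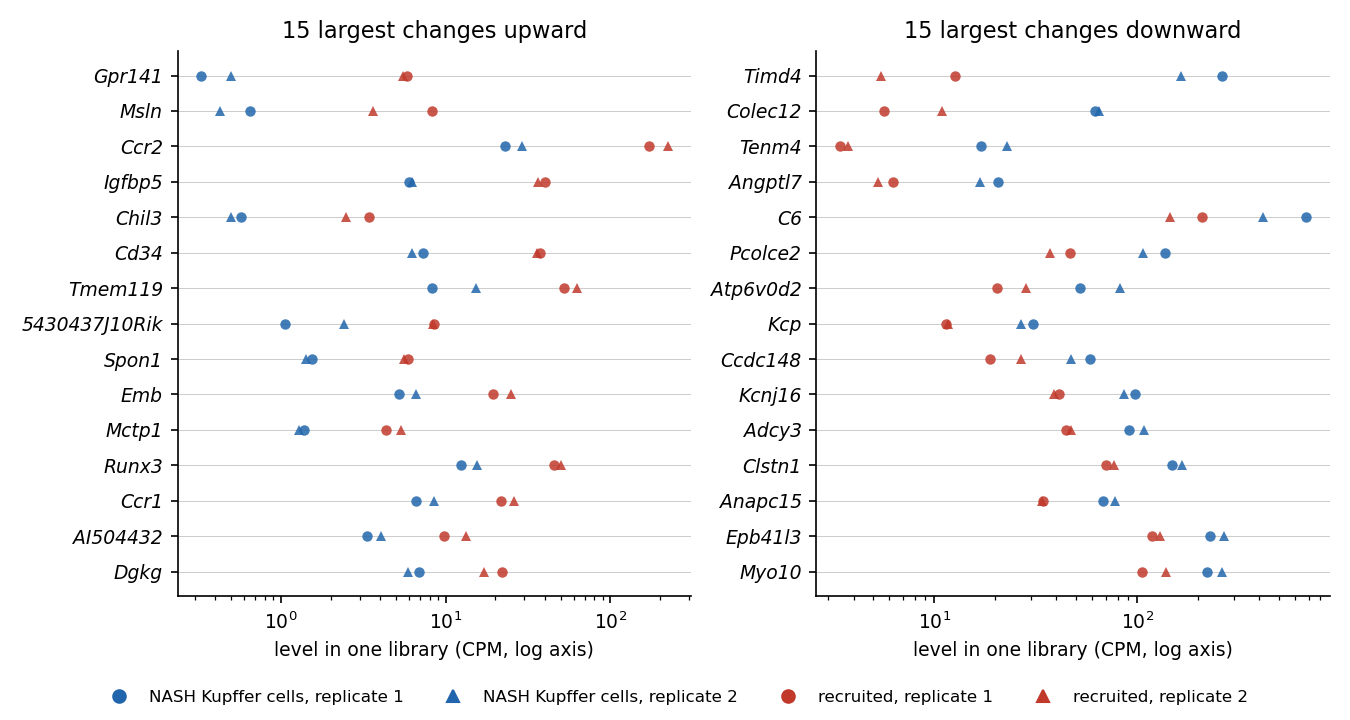
Level in each of the 4 libraries (CPM, log axis) of the 15 called genes with the largest differences upward and the 15 with the largest differences downward. Circles are replicate 1 and triangles replicate 2, blue for NASH Kupffer cells and red for recruited macrophages; in every row both red symbols lie on 1 side of both blue symbols.

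Surface molecules and 1 of their adaptors made up 7 higher genes, with log2 differences of 0.90 to 2.44. Cd34, a sialomucin best known from blood progenitors and endothelium, stood at 7.25 and 6.26 against 37.2 and 36 CPM, 5.42-fold higher (log2 2.44 ± 0.17 SE, adjusted p = 0.000107). Tmem119, a membrane protein known as a marker of microglia, stood at 8.23 and 15.2 against 52.5 and 62.8 CPM (4.89-fold). Emb, embigin, which accompanies a monocarboxylate transporter to the membrane, stood at 5.22 and 6.61 against 19.4 and 24.9 CPM (3.72-fold). These 3 genes were called in each fit without 1 library, and the replicates of a gate lay closer to each other than to the other gate. Cd93, a lectin-like glycoprotein of myeloid and endothelial cells, was 2.47-fold higher at 78.1 and 119 against 220.3 and 265 CPM (log2 1.03 to 1.65 without 1 library, called in none). Sema4d, a semaphorin of leukocytes, was 1.87-fold higher at 130.0 and 180.4 against 286 and 293 CPM (log2 0.68 to 1.17, called only without Kupffer cell replicate 2). Sirpb1a, a signal-regulatory receptor with near-identical copies whose reads the counting could split, stood at 14.3 and 14.8 against 43 and 26.9 CPM, and its value is uncertain for that reason. Sh2d1b1, an adaptor of SLAM-family receptors, stood at 6.2 and 6.75 against 17.7 and 16.4 CPM. Sirpb1a was called only without recruited replicate 2, and Sh2d1b1 in no fit without 1 library.

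Transcription factors accounted for 4 higher genes, with log2 differences of 0.79 to 1.77. Runx3, a Runt-family factor of leukocytes (mm10 chr4:135120645-135177990), stood at 12.4 and 15.4 against 45.4 and 50.0 CPM and was 3.42-fold higher (log2 1.77 ± 0.17 SE, adjusted p = 0.000952). Its family member Runx2 was 2.05-fold higher at 8.97 and 10.9 against 19.9 and 21.1 CPM. Rbpj, the DNA-binding partner of the Notch receptors, was 1.73-fold higher at 12.8 and 14.2 against 21.6 and 25.1 CPM, and E2f2, a factor of the cell division cycle, 1.9-fold higher at 7.74 and 9.81 against 16.8 and 16.7 CPM. Of these, only Runx3 was called in each fit without 1 library. The log2 ranges were 0.90 to 1.20 for Runx2 and 0.68 to 0.88 for Rbpj, called in none, and 0.77 to 1.12 for E2f2, called only without Kupffer cell replicate 2. Of the 30 listed transcription factors of Kupffer cells, Runx3 and Rbpj were higher, 0 were lower and the median log2 difference was 0.00. Over all genes tested, 0.333% were called higher and 0.201% lower. DESeq2, which called 125 of 11122 genes higher, called Mef2c in addition. In healthy Kupffer cells Runx3 stood at 2.00 ± 0.333 and Rbpj at 13.6 ± 0.201 CPM. In Ly6C-low recruited macrophages they stood at 208 ± 31.2 and 81.6 ± 2.36 CPM (SD, n = 2). Nr1h3 (LXR alpha), which drives the Kupffer cell programme, had 871 and 809 against 664 and 519 CPM and did not pass (log2 -0.51, 95% interval -0.92 to -0.09, adjusted p = 0.414). Spic, a factor of iron-handling macrophages, had 44.2 and 23.3 against 30.5 and 21.4 CPM, and Id3, a factor of tissue macrophages, 281 and 142 against 284 and 162 CPM. For both, replicate 1 was high and replicate 2 low in either gate, and the interval of Id3 ran from -1.29 to 1.44 on the log2 scale.

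The upstream sequence of Runx3 is shown because it holds the short Runt-family motif TGTGGTT, here read on the opposite strand, so that the capitals mark its reverse complement. The window is chr4:135120499-135120528, upstream of the start site on the plus strand (GRCm38.p6, RefSeq), and it holds the motif at 135 and at 127 bases upstream.
Runx3: tctggtccctcAACCACAgAACCACAaggc
Of the 40 higher genes with a RefSeq promoter, 3 hold this motif within 250 bases upstream on either strand (Gpr132, Runx2 and Runx3), and of the 24 lower genes 2 (C6 and Stab2), against 3.45% of 11058 tested genes and 4.40% of all 27025 promoters. For Runx2 the promoter belongs to another start site than that of the transcript counted here. A match is a string in the window and not a measured binding site.

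Proteases, matrix and secreted proteins contributed 8 higher genes. Igfbp5, a secreted binder of insulin-like growth factors, stood at 6.03 and 6.26 against 40.3 and 36.5 CPM, 6.24-fold higher (log2 2.64 ± 0.22 SE, adjusted p = 0.000952). Msln, mesothelin, a surface protein of mesothelial cells, was 11-fold higher at 0.652 and 0.427 against 8.22 and 3.61 CPM, and its recruited replicates lay far apart (log2 2.72 to 3.92 without 1 library, called in none). Chil3, the chitinase-like protein Ym1, which is also secreted and was counted apart from these 8, was 5.52-fold higher at 0.571 and 0.498 against 3.42 and 2.47 CPM, all low levels, and reads of its near-identical copy Chil4 could have been counted with it (log2 2.19 to 2.67, called in none). The membrane proteases Adam15 (55.7 and 67.4 against 107 and 127 CPM) and Adam19 (7.34 and 11.2 against 18.5 and 22.7 CPM) were 1.9-fold and 2.21-fold higher. Adam15 was not called without Kupffer cell replicate 1 or recruited replicate 2 (log2 0.80 to 1.09 over the 4 fits), and Adam19 was called only without Kupffer cell replicate 2 (0.88 to 1.5). Napsa, an aspartic protease, was 2.88-fold higher at 7.83 and 9.17 against 27.6 and 21.3 CPM. The matrix protein Spon1 went from 1.55 and 1.42 to 5.9 and 5.55 CPM, and the heparan sulphate-cleaving enzyme Hpse from 3.1 and 3.48 to 7.34 and 9.43 CPM. Napsa, Spon1 and Hpse were called in no fit without 1 library. The summed level of 15 stellate cell markers overlapped between the gates (418 and 581 CPM in Kupffer cells, 368 and 752 CPM in recruited macrophages), and its part in these differences was not tested.

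The remaining higher genes fell into several smaller groups. Ccnd2, cyclin D2 of the early cell cycle, was 2.22-fold higher at 18 and 23.9 against 46.9 and 46.1 CPM (log2 0.96 to 1.38 without 1 library, called in none). Dna2, a nuclease and helicase of DNA replication, and Tmpo, a protein of the nuclear lamina, were 1.81-fold and 1.46-fold higher. Regulators of the cytoskeleton and of signalling numbered 9, with log2 differences of 0.68 to 1.62. Dgkg, a diacylglycerol kinase, was the largest of them at 6.85 and 5.9 against 22 and 17.1 CPM (3.07-fold, called only without recruited replicate 2, log2 1.41 to 1.79). The formin Fmnl1 (2.09-fold), the adaptor Pstpip1 (2.39-fold) and the kinase Prkd3 (2.15-fold) belonged to the same group. Among the other proteins were Padi2, an arginine deiminase (4.08 and 5.76 against 12.4 and 11.8 CPM), and Mcub, a subunit that restrains the mitochondrial calcium uniporter (6.68 and 7.11 against 15.6 and 16.2 CPM). Mctp1, a calcium-binding membrane protein, went from 1.39 and 1.28 to 4.36 and 5.35 CPM. A further 4 higher transcripts have no established role, of which 5430437J10Rik went from 1.06 and 2.42 to 8.5 and 8.36 CPM and AI504432 from 3.34 and 4.05 to 9.71 and 13.4 CPM. With 1 library left out, Dna2, Pstpip1, Mcub and 5430437J10Rik were called only without Kupffer cell replicate 2, Prkd3 and AI504432 only without recruited replicate 1, and Tmpo, Fmnl1, Padi2 and Mctp1 in no fit.

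Apart from Timd4 (mm10 chr11:46810799-46844333), the gene of the gate, whose 23.4-fold lower level was fixed by the sort, 28 genes were lower. Scavenging and phagocytic receptors were the first group. Colec12, a scavenger receptor that binds oxidised lipoprotein and microbial sugars, stood at 61.6 and 65 against 5.63 and 11 CPM, 7.69-fold lower (log2 -2.94 ± 0.29 SE, adjusted p = 0.00117). Stab2, stabilin 2, the hyaluronan-clearing receptor of the sinusoid wall and of Kupffer cells, stood at 618 and 579 against 361 and 299 CPM, 1.82-fold lower (log2 -1.01 to -0.73, called in no fit without 1 library). Of 42 listed scavenger and phagocytic receptors, Colec12, Stab2 and the gate gene Timd4 were lower and Cd93 was higher. Without Timd4, 2 of 41 were lower and 1 higher, beside 0.201% and 0.333% of all genes tested. The list's median log2 difference was -0.25 against 0.01 for all genes. Stab1, the closest relative of Stab2, had 816 and 1117 against 1093 and 1147 CPM and overlapped between the gates. The scavenger receptors Marco and Cd163 had large estimates that did not pass with all 4 libraries, and their Kupffer cell replicates lay far apart. Cd163 was called lower without Kupffer cell replicate 2, and Marco with the 4 libraries fitted alone. Marco, which binds bacteria, had 185 and 95.6 against 15.6 and 15.2 CPM (log2 -3.18, 95% interval -5.43 to -0.94, adjusted p = 0.298). Cd163, which takes up haemoglobin, had 107 and 30.3 against 22.7 and 15.2 CPM (log2 -1.85, 95% interval -2.92 to -0.77, adjusted p = 0.167).

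The 250 bases upstream of Timd4 are shown because Tim4 separates the gates and the upstream region of its gene holds the core string TGCTGAC of sites for MAF-family factors. The sequence is chr11:46810549-46810798 on the plus strand (GRCm38.p6, RefSeq), it ends 1 base before the transcript start, and the capitals mark that string, which lies on the opposite strand 45 bases upstream.
Timd4: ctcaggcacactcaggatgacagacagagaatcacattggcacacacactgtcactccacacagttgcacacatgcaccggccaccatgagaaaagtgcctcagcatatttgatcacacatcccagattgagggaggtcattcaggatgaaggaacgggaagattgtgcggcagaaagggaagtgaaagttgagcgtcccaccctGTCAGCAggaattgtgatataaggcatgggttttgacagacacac
The string occurred in 2 of 24 lower genes with a promoter (Timd4 and Ccdc148), in 1 of 40 higher genes (E2f2) and in 3.23% of tested genes.

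Genes of the lysosome and of its acidification were the second lower group. Ctsd, the aspartic protease cathepsin D (mm10 chr7:142375916-142387870), stood at 10116 and 10499.8 against 5982 and 5932 CPM, 1.73-fold lower (log2 -0.79 ± 0.14 SE, adjusted p = 0.0335). The replicates of a gate differed by far less than the gates did. Ctsl, the cysteine protease cathepsin L, stood at 375 and 338 against 228 and 224 CPM (1.58-fold lower). Atp6v0d2, a proton pump subunit enriched in osteoclasts and lipid-laden macrophages, stood at 52 and 82.6 against 20.4 and 28.4 CPM (2.77-fold lower). Igf2r, the mannose 6-phosphate receptor that delivers enzymes to lysosomes, stood at 268 and 324 against 139.6 and 161 CPM (1.97-fold lower), and Gpr137b, a lysosomal membrane protein, at 63 and 68.1 against 37.7 and 34.5 CPM (1.82-fold lower). None of these 5 calls held in a fit without 1 library, where the log2 ranges were -0.82 to -0.75 for Ctsd, -0.72 to -0.58 for Ctsl, -1.76 to -1.08 for Atp6v0d2, -1.11 to -0.82 for Igf2r and -0.94 to -0.79 for Gpr137b. Of the 40 listed lysosome genes, 3 were lower and 0 higher (Ctsd, Ctsl and Atp6v0d2), DESeq2 called 9 lower and 0 higher, and 18 were below 0 at an unadjusted p under 0.05. Over all genes tested, 4.37% were below 0 at that p, edgeR called 0.201% lower and DESeq2 called 139 of 11122 lower. Estimates lay below 0 for 38 of the 40 and for 47.8% of all genes, with a median of -0.27 in the list. Ctsb, cathepsin B, had 14685 and 14941 against 10565 and 10559 CPM, and Cd68, a glycoprotein of macrophage lysosomes, 1497 and 1485 against 1178 and 1030.5 CPM, and neither passed. The summed level of the 40 genes was 73997 and 74999 CPM in the Kupffer cell libraries and 59335 and 56329 CPM in the recruited libraries.

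Windows upstream of Ctsd and Igf2r are shown because both hold TCACGTGA, the E-box of the lysosomal regulators TFEB and TFE3, marked in capitals. They lie on the minus strand at chr7:142387908-142387937 for Ctsd and at chr17:12769737-12769766 and chr17:12769707-12769736 for Igf2r (GRCm38.p6, RefSeq), with the match 99, 49 and 8 bases upstream of the RefSeq start site. For Ctsd that start site differs from the start of the transcript counted here.
Ctsd: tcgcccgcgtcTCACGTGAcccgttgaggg
Igf2r, distal: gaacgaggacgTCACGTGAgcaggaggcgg
Igf2r, proximal: ggcgggggcgggccgactcaggTCACGTGA
This E-box occurred in 2 of the 24 lower genes and 0 of the 40 higher genes with a promoter, in 1.40% of tested genes and in 0.759% of all promoters. The other strings searched on both strands were the PU.1 site GAGGAAGT (2 higher and 0 lower genes, 2.71% of tested genes) and the AP-1 site TGANTCA (2 and 0, 4.72%), which can overlap the MAF core string. No match says only that these letters are not in the window.

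Secreted proteins and adhesion molecules followed. C6, a component of the membrane attack complex of complement that Kupffer cells make (mm10 chr15:4727210-4804045), stood at 683 and 415 against 208 and 145 CPM, 3.11-fold lower (log2 -1.64, called only without Kupffer cell replicate 2, range -1.94 to -1.23). Pcolce2, an enhancer of procollagen processing, stood at 137 and 107 against 46.4 and 37.3 CPM (2.91-fold lower), Angptl7, an angiopoietin-like protein, at 20.6 and 16.7 against 6.23 and 5.28 CPM (3.23-fold lower), and Kcp, a secreted modulator of BMP and TGF-beta signalling, at 30.6 and 26.8 against 11.4 and 11.7 CPM (2.49-fold lower). Mmp19, a matrix metalloproteinase, was 1.89-fold lower at 71.5 and 52.9 against 29.8 and 36 CPM. Cdh5, VE-cadherin, an adhesion protein of endothelium that mouse Kupffer cells also express, stood at 999.9 and 919.8 against 585 and 568 CPM (1.66-fold lower, log2 -0.78 to -0.67 without 1 library, called in none). The summed level of 17 sinusoidal endothelial markers was 1758 and 2093 CPM in Kupffer cells and 1856 and 1894 CPM in recruited macrophages and overlapped between the gates. Most of that sum was Stab1 and Stab2, which are also in the list of scavenger and phagocytic receptors. Stab1 stood at 816 and 1117 against 1093 and 1147 CPM, and Stab2 at 618 and 579 against 361 and 299 CPM. The teneurin Tenm4 fell furthest in this group, from 17 and 22.7 to 3.42 and 3.75 CPM (log2 -2.47, 95% interval -3.27 to -1.68, range -2.66 to -2.24, called in no fit without 1 library). Clstn1, a calsyntenin, and Ninj1, a mediator of plasma membrane rupture in dying cells, were 2.15-fold and 1.81-fold lower. Angptl7, Mmp19 and Ninj1 were called only without Kupffer cell replicate 2, and Pcolce2, Kcp and Clstn1 in no fit without 1 library.

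The upstream windows of C6 and Stab2 complete the set with the Runt-family motif, in capitals. They lie at chr15:4726968-4726997 on the plus strand and at chr10:87007997-87008026 on the minus strand, with the motif 231 and 73 bases upstream.
C6: aggacaagtggAACCACAcctactttctaa
Stab2: cactgagctccTGTGGTTtctcagcctggc

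A last 12 lower genes fell by 0.69 to 1.21 on the log2 scale. They comprised the potassium channel Kcnj16 (97.3 and 85.7 against 41.3 and 38.9 CPM) and the membrane protein Ttyh2 (218 and 218 against 134 and 125 CPM). Enzymes that make and break down cyclic AMP were both lower, Adcy3 at 91 and 108 against 44.7 and 47.1 CPM and Pde8a at 102 and 93.3 against 61.3 and 57.9 CPM. Among 5 regulators of the cytoskeleton and of small GTPases, Epb41l3 stood at 228 and 267 against 119 and 129.6 CPM and the unconventional myosin Myo10 at 222 and 260.5 against 105 and 138 CPM. Anapc15, Btbd11 and Ccdc148 made up the rest, of which Ccdc148 stood at 58.4 and 47.3 against 18.9 and 26.9 CPM. With 1 library left out, Adcy3 was called only without Kupffer cell replicate 1, Myo10 only without recruited replicate 2, and the others named here in no fit.

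The lists of macrophage programmes differed in where their members lay. Among 24 Kupffer cell identity genes tested, edgeR called Timd4, C6 and Cdh5 lower and 0 higher. Without Timd4, whose call the sort fixed, 2 of 23 were called lower, 12 were below 0 at an unadjusted p under 0.05 against 4.37% of all genes tested, and the median was -0.51. DESeq2 called 7 lower in this list, including Timd4, Clec4f and Vsig4. Over all genes, edgeR called 0.201% lower and DESeq2 139 of 11122. Clec4f had a log2 difference of -0.90 (95% interval -1.43 to -0.37, adjusted p = 0.174). Cd5l, a secreted protein that prolongs macrophage survival, had 15274 and 14958 against 9553 and 8009 CPM (log2 -0.78, interval -1.40 to -0.16, adjusted p = 0.394). Vsig4, a receptor for complement fragments, had 1567 and 1341 against 710.2 and 786 CPM (log2 -0.96, interval -1.5 to -0.42, adjusted p = 0.147). In these 3 genes the gates did not overlap, and the intervals excluded 0 before adjustment. The gates also did not overlap for 44.1% of all genes tested, and 4.37% of all genes were below 0 at an unadjusted p under 0.05. The complement gene C1qa, another of the list, had 3042 and 2439 against 2494 and 2625 CPM, so that the gates overlapped. The summed level of the list was 47606 and 41739 CPM in Kupffer cells and 31931 and 28727 CPM in recruited macrophages, against 105 and 106 CPM in blood monocytes. Of 15 genes of long-lived resident macrophages, edgeR called Timd4 and Colec12 lower and 0 higher, with a median of -0.37, and 1 lower with a median of -0.31 without Timd4. DESeq2 called 3 lower, the folate receptor Folr2 in addition, and F13a1, a transglutaminase subunit of monocytes and macrophages, higher (4.97 and 7.04 against 13.3 and 19.5 CPM). In bulk samples, fewer cells of a type and less RNA per cell cannot be told apart.

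Monocyte genes lay on the other side of 0. Of 20 Ly6C-high monocyte genes, 4 were higher (Ccr2, Chil3, Cx3cr1 and Napsa) and 0 lower by edgeR, with a median of 0.70. Among all genes tested, 0.333% were called higher and 0.201% lower. At an unadjusted p under 0.05, 9 of the list were higher and 2 lower, beside 4.73% and 4.37% of all genes. DESeq2 called 6 higher, F13a1 and Ly6c2 in addition, and Mgst1, a glutathione transferase, lower (53.5 and 71.9 against 36 and 39.5 CPM). Over all genes, DESeq2 called 125 higher and 139 lower of 11122. Without 1 library only Ccr2 was called, except without Kupffer cell replicate 2, where Cx3cr1 was called as well. Ly6c2, the gene of the Ly6C protein itself, had 2.2 and 1.85 against 4.25 and 3.81 CPM and did not pass (log2 1.00, adjusted p = 0.182), far from the 861 ± 79.2 CPM of blood monocytes (SD, n = 2). The summed level of the list was 1405 and 1538 CPM in Kupffer cells, 1977 and 2133 CPM in recruited macrophages, and 30422 and 36047 CPM in blood monocytes. The rise of this sum between the gates was no larger than that of Ccr2 and Cx3cr1 together. Ccr2 stood at 23 and 29.3 against 173 and 223 CPM, and Cx3cr1 at 217 and 346 against 663 and 777 CPM. Estimates lay above 0 for 16 of the 20 genes and below 0 for 4. Of 21 chemokine receptors Ccr1, Ccr2 and Cx3cr1 were higher and 0 lower, while edgeR called 0 of 25 chemokine ligands (1 at an unadjusted p under 0.05). DESeq2 called 0 of the 18 ligands for which it gave an adjusted p. The smallest p-values among the ligands were those of Pf4, platelet factor 4, and Ccl6 (547 and 403 against 337 and 356 CPM, adjusted p = 0.639). Of 15 Ly6C-low monocyte genes Cx3cr1 was higher and 0 were lower.

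Lipid handling, iron, complement and matrix lists gave few calls in number. Among all genes tested, edgeR called 0.333% higher and 0.201% lower, and 4.37% lay below 0 at an unadjusted p under 0.05. DESeq2 called 139 of 11122 genes lower. Estimates lay below 0 for 20 of 23 lipid-associated macrophage genes and 18 of 22 LXR target genes. The same held for 19 of 24 cholesterol synthesis genes and 20 of 25 iron and haem genes, beside 47.8% of all genes. Of 23 lipid-associated macrophage genes, Atp6v0d2, Ctsd and Ctsl, which are also in the lysosome list, were called lower and 0 higher by edgeR, and DESeq2 called Ctsb lower in addition. Spp1, osteopontin, had 67.5 and 216 against 88.8 and 219 CPM, and its replicates differed more than the gates. edgeR called 0 of 22 LXR target genes, with 5 below 0 at an unadjusted p under 0.05 and 1, Apoc1, called lower by DESeq2. Apoc1, a lipoprotein component, had 662 and 547 against 243 and 295 CPM (log2 -1.17, interval -1.83 to -0.51, adjusted p = 0.147). Arg2, the mitochondrial arginase, had 16.1 and 22.3 against 11.5 and 11.4 CPM (adjusted p = 0.202). Of 24 cholesterol synthesis genes edgeR called 0, with 5 below 0 at an unadjusted p under 0.05, and DESeq2 called Fdft1 lower (174 and 205 against 116 and 131 CPM). Mvd, an enzyme of the mevalonate route, had 25.8 and 29.6 against 20.2 and 18.5 CPM (adjusted p = 0.199). Among 25 iron and haem genes edgeR called 0, with 7 below 0 at an unadjusted p under 0.05, and DESeq2 called Fth1 lower (2906 and 3363 against 2095 and 1934 CPM). Cd163, another of them, was called lower by edgeR without Kupffer cell replicate 2. Ncoa4, the receptor that delivers ferritin for breakdown, had 30.2 and 41.8 against 21.6 and 23.9 CPM (adjusted p = 0.152). C6 was the 1 lower gene of 28 complement genes, with 0 higher. Cd34 was higher and Cdh5 lower among 36 integrins and adhesion genes, and Igfbp5 and Adam19 were higher and Mmp19 lower among 37 genes of growth factors and matrix remodelling.

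Genes of antigen presentation and cell division had estimates mostly above 0, with 0 calls in the edgeR fit of the set. Of 14 MHC class II genes, edgeR and DESeq2 called 0, with 5 above 0 at an unadjusted p under 0.05, beside 4.73% of all genes, and a median of 0.37. H2-Ob, a subunit that restrains peptide loading, had 9.13 and 8.53 against 14.6 and 14.2 CPM (adjusted p = 0.25), and its partner subunit H2-Oa 2.69 and 2.13 against 6.07 and 4.35 CPM (adjusted p = 0.486). For 25 cell cycle genes, estimates lay above 0 for 23 and 9 of them had an unadjusted p under 0.05, while edgeR called 0. Of all genes tested, 52.1% of estimates lay above 0, and 4.73% lay above 0 at that p. Mki67, the proliferation marker Ki-67, had 95.5 and 86.5 against 142 and 142 CPM (log2 0.64, interval 0.35 to 0.93, adjusted p = 0.0647), and DESeq2 called it higher. The kinetochore motor Cenpe had 15.9 and 16.1 against 26 and 25.3 CPM (adjusted p = 0.101). Both tools called 0 genes in the lists of inflammatory cytokines and NF-kB (27 tested, 1 at an unadjusted p under 0.05), the interferon response (25, 0) and immediate early and stress genes (21, 0). These are edgeR's numbers, and DESeq2 gave an adjusted p for 22 of the 27 inflammatory genes. The smallest p-values of these 3 lists belonged to Il1rn, the interleukin 1 receptor antagonist (209 and 197 against 134 and 149.7 CPM), and Osm, oncostatin M (1.87 and 1.14 against 2.7 and 2.88 CPM), to the interferon-induced Oasl2 (235 and 168 against 289 and 229 CPM) and Xaf1 (99 and 85.2 against 113 and 99.1 CPM), and to Ier3 (9.54 and 4.27 against 13.7 and 7.09 CPM) and Zfp36 (214 and 127 against 254 and 184 CPM). The gates overlapped for Oasl2, Ier3 and Zfp36.

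**Figure D3:**
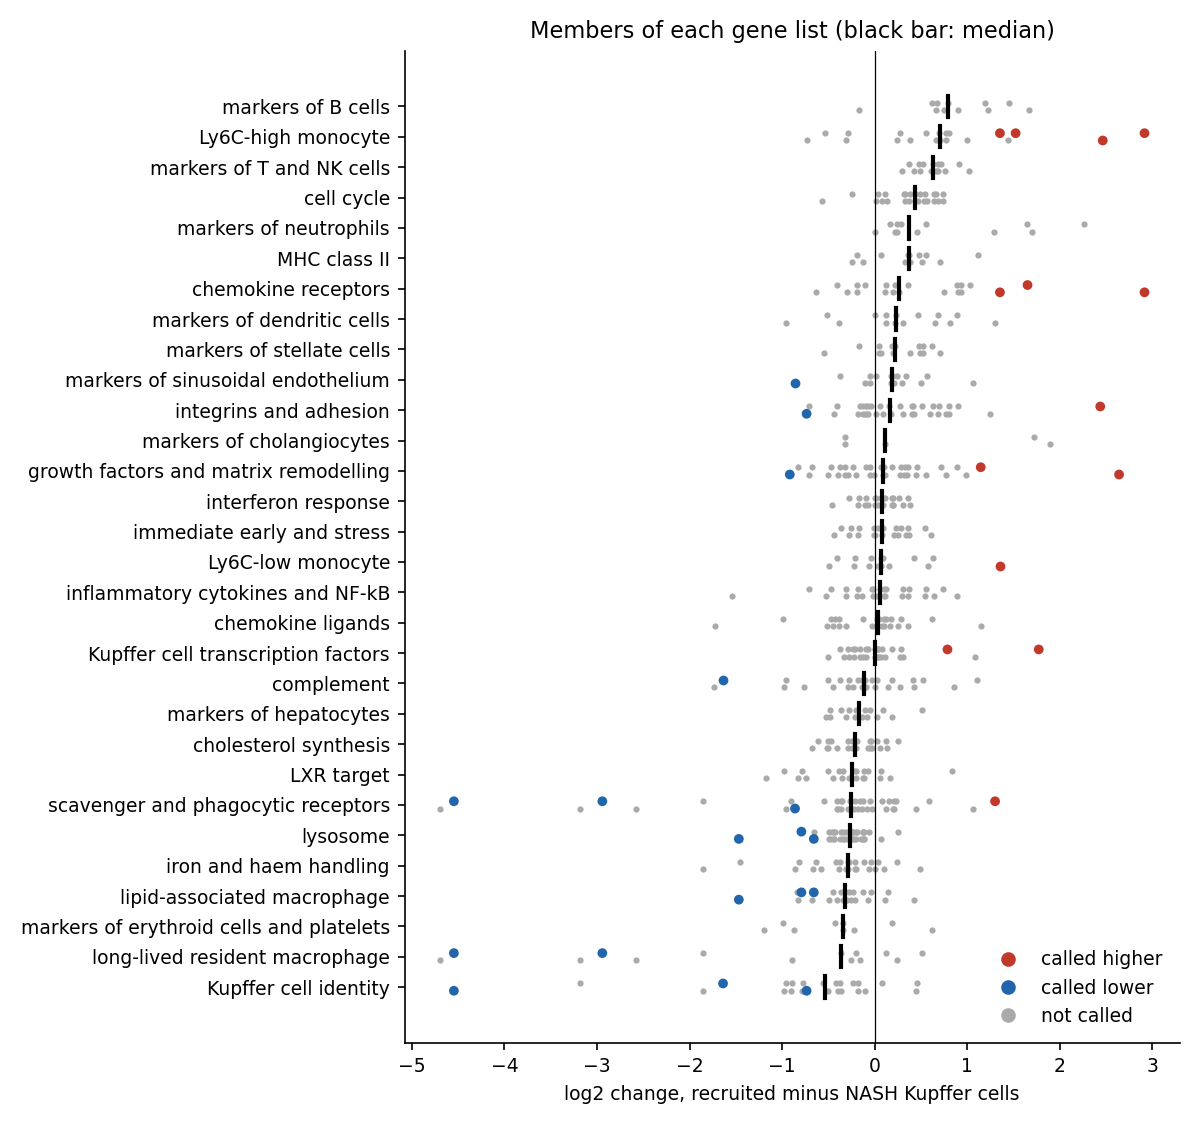
Log2 difference between recruited macrophages and NASH Kupffer cells for the tested members of 30 gene lists, 1 point a gene and a black bar at each list's median, ordered by the median. Kupffer cell identity lies lowest with a median of -0.53. B cell markers lie highest at 0.79, followed by Ly6C-high monocyte genes at 0.70 and T and NK cell markers at 0.63. Coloured points are the called genes.

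Markers of other cell types were checked in both gates. Of 9 such lists, the only gene that edgeR called was Stab2, of the sinusoidal endothelial list, where DESeq2 also called Fcgr2b, an inhibitory Fc receptor shared with macrophages, higher (28.9 and 45.6 against 71.6 and 84.4 CPM). T and NK cell markers summed to 57.5 and 82.8 CPM in Kupffer cells and to 99.5 and 113 CPM in recruited macrophages, with all 15 estimates above 0 and 2 of them at an unadjusted p under 0.05. B cell markers summed to 116 and 105 against 161 and 136 CPM, with 10 of 11 estimates above 0 and 5 of them at an unadjusted p under 0.05, where 4.73% of all genes lay. The most abundant single markers were Lck (7.5 and 12.7 against 12.7 and 13.6 CPM) for T and NK cells and Bank1 (67.7 and 52.8 against 51 and 56.5 CPM) for B cells, both overlapping between the gates. These sums moved with the gate at low levels, and their part in the higher genes was not tested. Hepatocyte markers summed to 159 and 495 CPM in Kupffer cells and to 109 and 470 CPM in recruited macrophages, so replicate 2 was high in either gate, as was its most abundant marker, albumin (Alb, 78.8 and 266 against 57.5 and 244 CPM). Cholangiocyte markers summed to 71.2 and 221 against 95.2 and 226 CPM. Nearly all of that sum was Spp1 (67.5 and 216 against 88.8 and 219 CPM), a gene also listed for lipid-associated macrophages. Neutrophil markers summed to 151 and 135 against 177 and 157 CPM, dendritic cell markers to 120 and 110 against 126 and 123 CPM, and erythroid cell and platelet markers to 56.1 and 51.3 against 70.6 and 77.5 CPM. The most abundant neutrophil and dendritic cell markers were Csf3r (118 and 112 against 127 and 130.3 CPM) and Batf3 (48.3 and 45.5 against 50.4 and 43.3 CPM). Those of platelets and stellate cells were Pf4 (40.3 and 46.4 against 60.5 and 72.7 CPM) and Ecm1 (193 and 147 against 122 and 111 CPM), and macrophages can express both. No marker of the 9 lists was at 0 counts in all 4 libraries.

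The other 4 populations of the set entered the fit, and so its estimate of the spread, but not the difference that was tested. Their levels place these genes on a wider scale. Ccr2 stood at 4.38 ± 0.0331 CPM in healthy Kupffer cells, 26.1 ± 4.46 in NASH Kupffer cells, 198 ± 35.3 in Kupffer-niche recruited macrophages, 788 ± 99.9 in Ly6C-low recruited macrophages, 1475 ± 197 in Ly6C-high recruited macrophages and 2903 ± 540.0 in blood monocytes (mean ± SD, n = 2 each). Recruited macrophages of the Kupffer niche thus had a level between those of Kupffer cells and of the CD11b-high gates. Cd34 had another order, with 87.6 ± 5.6 CPM in Ly6C-low recruited macrophages and 3.13 ± 0.399 CPM in blood monocytes, below the 36.6 ± 0.849 CPM of the Kupffer niche. Igfbp5 was at 38.4 ± 2.74 CPM in the Kupffer niche, at 21.4 ± 4.93 CPM in Ly6C-high recruited macrophages and had 0 counts in both blood libraries. Atp6v0d2 was at 0.677 ± 0.114 CPM in healthy Kupffer cells, 67.3 ± 21.6 in NASH Kupffer cells and 24.4 ± 5.62 in the Kupffer niche. Ctsd was at 4149 ± 481, 10308 ± 271 and 5957 ± 35.4 CPM in the same 3 populations, so that the recruited level lay above the healthy one. Timd4 was at 883 ± 175 CPM in healthy Kupffer cells and had 0 counts in both blood libraries. The differences between these populations were not tested here, apart from the comparisons named in the text.

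**Figure D4:**
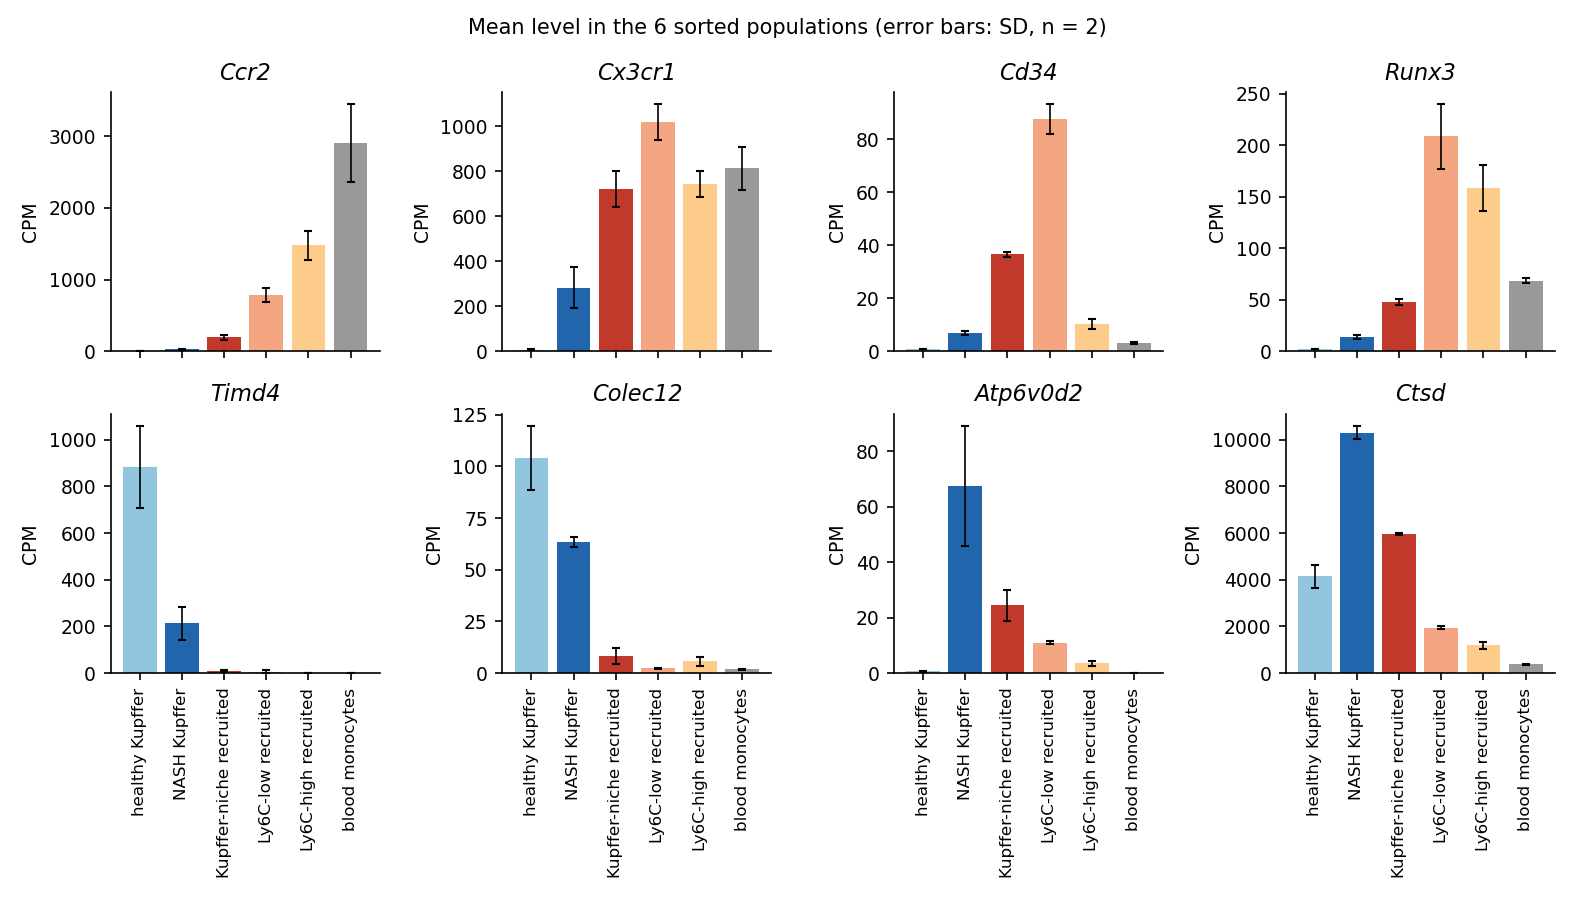
Mean level (CPM, linear axis from 0) of 8 called genes in the 6 sorted populations; bars are means and error bars the SD of 2 libraries. Ccr2 is lowest in healthy Kupffer cells and highest in blood monocytes, while Timd4 and Colec12 are highest in healthy Kupffer cells, and Atp6v0d2 and Ctsd are highest in NASH Kupffer cells.

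Blood monocytes and healthy Kupffer cells share no library with the main comparison, so they give the direction of the 77 genes between a monocyte and a resident state in other samples. The same fit called 8844 of 14407 genes between them (61.4%), 28.4% higher and 33% lower in monocytes. Of the 48 genes higher in recruited macrophages, 45 were higher in monocytes, and 3 were lower (Ccnd2, Igfbp5 and Msln). Of the 29 genes lower in recruited macrophages, 28 were lower in monocytes and 1, Mmp19, was higher. The share of the higher genes was 93.8% against the 28.4% of all genes, and that of the lower genes 96.6% against 33% (27 of 28 without Timd4). Ccnd2 stood at 9.98 ± 1.14 CPM in healthy Kupffer cells and 2.7 ± 1.13 CPM in monocytes, and Mmp19 at 61.2 ± 4.13 and 83.8 ± 5.41 CPM (SD, n = 2). Both populations entered the fit that called the 77 genes and share its estimate of the spread. Blood and liver were also prepared differently and the diet differed, which cannot be told apart from the cell state.

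**Figure D5:**
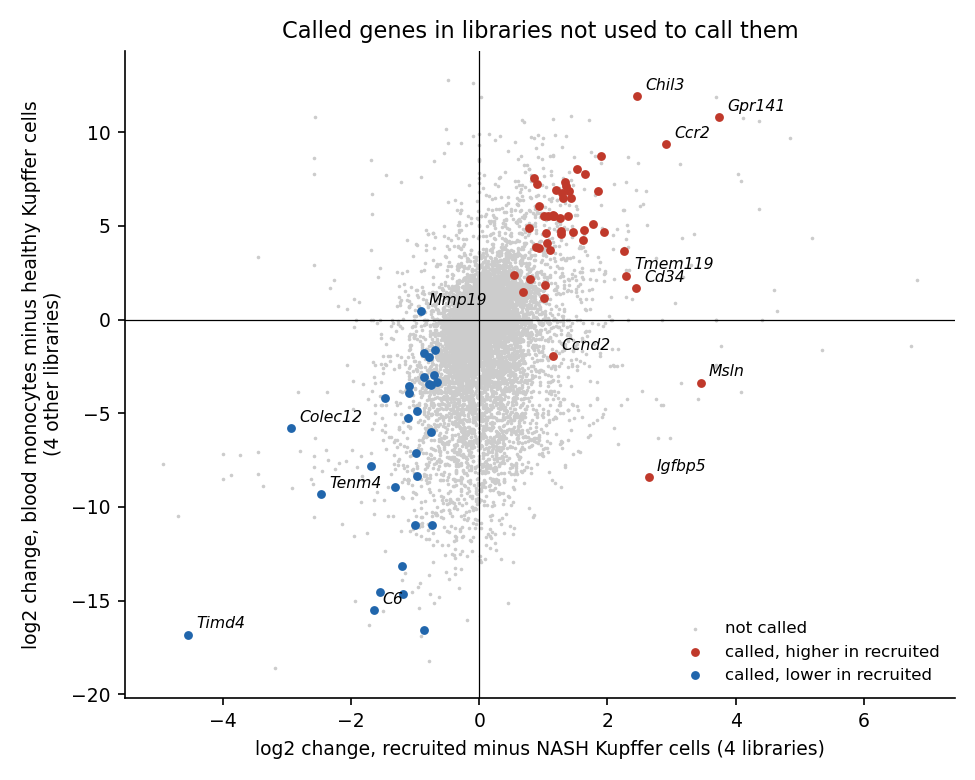
Log2 difference between blood monocytes and healthy Kupffer cells (vertical axis, 4 other libraries) against the log2 difference between recruited macrophages and NASH Kupffer cells (horizontal axis), 1 point a gene. Of the 48 red genes 45 lie above 0 on the vertical axis, and of the 29 blue genes 28 lie below 0; fitted values far from 0 belong to genes at or near 0 counts in 1 population.

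A second pair of Tim4-negative and Tim4-positive libraries was described with more reserve. It set 3 libraries of Tim4-negative cells from Cre-negative mice with floxed LXR alpha and beta genes against 3 of Tim4-positive Kupffer cells from C57BL/6J mice, all after 20 weeks of NASH diet. Genotype and depth (2.99 to 4.32 M against 16 to 27 M counts) differ with the gate and cannot be told apart from it. The labels do not say whether these libraries were prepared or sequenced together. A fit of its own called 5923 of 12850 genes (46.1%), 22.5% higher and 23.6% lower. limma on the deposited TPM moved this split from 2891 higher and 3032 lower to 4308 and 1543 (pseudocount 1) or 4282 and 1444 (pseudocount 0.1). Of the 29 genes lower in the main comparison, 21 were lower here (72.4%), 2 were higher (Rasal2 and Syne2) and 6 were not called. Timd4, which defines this pair of gates as well, is one of the 21, and 20 of 28 (71.4%) were lower without it. Of the 47 tested genes that were higher in the main comparison, 11 were higher here (23.4%), 8 were lower and 28 were not called. The share of the lower genes was thus 72.4% beside 23.6% of all genes, and that of the higher genes 23.4% beside 22.5%, near the background. Without floxed replicate 1, 7 of the higher genes were called higher instead of 11, and without Kupffer cell replicate 1 at 20 weeks, 5 instead of 8 were called lower.

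Single genes showed both patterns. Timd4 was at 3.4, 5.69 and 16.2 CPM in the Tim4-negative and 129, 399 and 105 CPM in the Tim4-positive libraries (log2 -4.62, adjusted p = 0.000277), and Colec12 at 3.4, 6.41 and 5.04 against 23.8, 175 and 50.5 CPM (log2 -4.04, adjusted p = 0.00104). Ctsd was at 1198, 1403 and 1303 against 8359, 7193 and 9996 CPM, C6 at 251, 109 and 126 against 409.7, 792 and 314 CPM and Stab2 at 171, 35.8 and 127 against 578, 988 and 553 CPM, all lower. Among the higher genes, Gpr141 was at 40.8, 9.25 and 32.1 against 2.21, 2.06 and 1.3 CPM, Spon1 at 22.4, 15.9 and 9.81 against 0.99, 1.11 and 1.3 CPM and Cx3cr1 at 189, 389 and 332 against 221, 149 and 175 CPM, all called higher. Ccr2 was at 47.5, 24.4 and 44.3 against 32.7, 25.4 and 23.7 CPM and did not pass (log2 0.50, adjusted p = 0.156). Cd34 was at 3.4, 1.19 and 1.59 against 5.42, 1.99 and 2.6 CPM and Runx3 at 5.77, 12.3 and 5.3 against 23.5, 13.9 and 11 CPM, and neither passed (adjusted p = 0.397 and 0.0679). Emb was called lower, at 0, 0.712 and 2.39 against 7.92, 7.15 and 5.76 CPM. Of the 24 genes of Kupffer cell identity 19 were lower and 1 higher, with a median of -1.45, and of the 40 of the lysosome 33 were lower and 1 higher, beside 23.6% and 22.5% of all genes. Without Timd4 the first count was 18 of 23. Of the 20 genes of Ly6C-high monocytes 11 were lower and 1 higher. Clec4f was at 909.5, 1739 and 1328 against 3334, 4207 and 3594 CPM (log2 -1.49, adjusted p = 0.000841), and Mki67 at 245, 380.3 and 331 against 97.1, 40.9 and 76.4 CPM, called higher.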

How the data were processed

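RNA was sequenced from sorted cells. The authors deposited raw counts and TPM for 40458 transcripts, made with HOMER (analyzeRepeats.pl, mm10 transcripts, reads in exons), per the file headers. STAR, HOMER and DESeq2 are named in the submitters' processing notes without roles. Strand, trimming and filters are not given in the sources used here, so a gene and an overlapping antisense gene cannot be told apart. Each symbol was represented by its most counted transcript (24941 genes, 7630 of them with several transcripts).

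The deposited counts of the 12 libraries were fitted together by quasi-likelihood in edgeR 4.0.16 (R 4.3.3; filterByExpr at 10 counts a library and 15 in total, TMM, glmQLFit, glmQLFTest, two-sided, Benjamini-Hochberg over 14407 genes, called at an adjusted p under 0.05, 6 residual degrees of freedom, biological coefficient of variation 0.168). The second pair of gates had a fit of its own (6 libraries, 12850 genes, 0.283). The SE is the log2 difference over the root of F, and 95% intervals use the t distribution on the total degrees of freedom. The fits were also tested on simulated data. There, apart from 200 changed genes, each gene had the same mean level in all groups, and the libraries were independent. The real populations differ widely and same-numbered libraries deviated together, so the simulation does not show how the fits perform on them. Replicate libraries were not duplicates (chi-square per degree of freedom 12.4 to 74.1). The alternatives were DESeq2 1.42.0, its size factors in edgeR, no filter, limma 3.58.1 on log2 of the deposited TPM plus 1 or 0.1, every transcript, the 4 libraries alone, a replicate block and each library left out.

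The samples compared, the 30 gene lists and the rule for named genes were chosen with earlier results of these data known. By that rule, values are given for at least the 15 highest and 15 lowest called genes, called list members, the 2 smallest p-values of macrophage lists without a call, gate and lineage genes, and the most abundant marker of each other cell type. The other called genes with values, and C1qa, Ctsb, Cd68, Fcgr2b, Fth1, F13a1 and Mgst1, were chosen after their values were seen. The grouping of called genes by role was made after their values were seen. Promoters are RefSeq sequences (GRCm38.p6), matched by symbol for 40 of the 48 higher and 24 of the 29 lower genes. For some of them, Runx2 and Ctsd included, the start site was not that of the counted transcript.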

Additional observations from a re-analysis of the deposited data

How the results depend on the processing

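The number of genes called between recruited macrophages and NASH Kupffer cells (77) depended on the processing, while none of the 77 called genes changed direction in an alternative that tested it. DESeq2 called 264 genes, the fit without a filter on low counts 257, limma on log2(TPM + 0.1) 36 and the 4 libraries alone 48. DESeq2 size factors (70 genes), log2(TPM + 1) (72) and every transcript (93) stayed within 1.5 times. Of the 48 higher and 29 lower genes, DESeq2 called 47 and 29 in the same direction, size factors 40 and 28, log2(TPM + 1) 36 and 18, log2(TPM + 0.1) 28 and 2, and the 4 libraries alone 13 and 15. Leaving out 1 library gave 10 to 33 calls. Same-numbered libraries of the 2 gates deviated together (correlation 0.49). The labels do not say whether the numbers pair the samples, and 2 pairs cannot settle it, so the main fit had no block. The replicate block gave 152 calls (87 higher, 65 lower), including all 77, and in the lists it called Cd163, Folr2, Kcna2, Mgst1 and Mmp12 lower and F13a1, Mki67, Mef2c and Itga6 higher in addition. It gave 9068 and 5430 calls in the other 2 comparisons.

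Calls between blood monocytes and healthy Kupffer cells (8844) ran from 7538 to 9068 and those of the second pair of gates (5923) from 4501 to 6658, all within 1.5 times. The 45 genes higher in monocytes were 45 under each alternative, and the 28 lower ones 27 or 28. limma on TPM put the median log2 difference of all genes at 0.10 and 0.13 (pseudocounts 1 and 0.1) in the main comparison, 0.05 and 0.07 in the monocyte comparison and 0.33 and 0.37 in the second pair, where DESeq2 gave 0.15. Causes of these shifts were not tested. Depth limits genes at few counts: 95% intervals lay within 2-fold for 65.4% of all genes tested and for 93.0% of those at 10 CPM or more.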

Other observations

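In the liver gates of mice on the NASH diet, several gene groups differed between replicates 1 and 2 more than between Kupffer cells and recruited macrophages. Immediate early and stress genes summed to 3124 CPM in Kupffer cell replicate 1 and 3370 CPM in recruited replicate 1, but to 1382 and 1569 CPM in replicates 2 of the same gates. The Ly6C-low gate had 3390 and 2044 CPM and the Ly6C-high gate 3467 and 1855 CPM in replicates 1 and 2. The order was the opposite in healthy Kupffer cells (2124 and 2763 CPM) and in blood monocytes (2500 and 2873 CPM). Interferon response genes summed to 4530 and 4547 CPM in replicates 1 of Kupffer cells and recruited macrophages and to 3232 and 3304 CPM in replicates 2, but to 2711 and 2657 CPM in healthy Kupffer cells and 3698 and 5018 CPM in blood monocytes. Hepatocyte markers went the other way, with 159 and 109 CPM in replicates 1 and 495 and 470 CPM in replicates 2. The labels do not say what the replicate numbers share.

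The second pair of gates gave other values for some genes, without a test against the first. Spic, a factor of iron-handling macrophages, had 44.2 and 23.3 CPM in NASH Kupffer cells and 30.5 and 21.4 CPM in recruited macrophages, and was called higher in the Tim4-negative cells at 20 weeks (111 ± 29.6 against 29.8 ± 2.37 CPM, SD, n = 3, log2 1.90, adjusted p = 0.000115 by edgeR). Chil3 and Ly6c2 had 0 counts in all 3 Tim4-negative libraries of that pair. Whether these differences follow the floxed genotype, the depth or a batch that the labels do not name cannot be told apart.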
